A study of Mus musculus with 10 samples.

Results

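The cytochrome P450 genes of the Cyp1, Cyp2 and Cyp3 families were examined in the livers of mice that received TM5614 by mouth, a small molecule that inhibits PAI-1, and of mice that did not. A gene was a member if its symbol named a gene of 1 of these 3 families (Cyp1, Cyp2 or Cyp3, then a subfamily letter and a number) and its counts summed over all libraries reached 50. Of 24421 genes listed, 58 had such a symbol and 42 were members. The lowest member total was 61 counts in Cyp3a16, and the highest was 985757 counts in Cyp2e1. Just outside the minimum lay Cyp1a1 with 49 counts. The minimum used the level over both groups together and not the difference between them.

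All 10 mice were male C57BL/6 (C57BL/6 J in the study's methods), given as 21 weeks old in the labels, and had free access to food. The Chow group (n = 5) ate standard chow, and the TM5614 group (n = 5) ate the same chow with TM5614 added at 20 mg/kg/day for 10 days. Each mouse gave 1 liver library. The labels give no time of day, cage or batch, so none of these can be told apart from the groups. The question was which genes of drug and steroid oxidation differed in level between the livers of the 2 groups.

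P450s of these families are haem enzymes of the endoplasmic reticulum that oxidise drugs, environmental chemicals, steroids and fatty acids, mostly in hepatocytes. They take electrons from NADPH through P450 oxidoreductase (Por), in part by way of cytochrome b5. Several are induced through ligand-activated receptors, the Cyp1 genes by the aryl hydrocarbon receptor (Ahr) and many Cyp2b, Cyp2c and Cyp3a genes by the constitutive androstane receptor (CAR, Nr1i3) and the pregnane X receptor (PXR, Nr1i2), both of which pair with Rxra. Many also differ along the axis of the liver lobule, between the sexes and over the day.

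Total counts per library ranged from 6398335 to 10874955. Chow replicate 2 had the lowest mean correlation with its own group over the genes tested, 0.932, against 0.969 to 0.985 in the other libraries. It held the lowest CPM (counts scaled to a common library size, with TMM factors) of the Chow group in 23 of the 42 members. In TM5614 replicate 2, 4 skeletal muscle genes (Acta1, Ckm, Myh8 and Ttn) took 0.324% of the counts, against at most 0.00555% in any other library. Results that turned on these libraries are given with and without them. Of 6 hepatocyte markers 0 passed the edgeR test (1 at an unadjusted p under 0.05, Ttr, which DESeq2 called lower), and their summed level was 107277 to 125386 CPM in Chow livers and 100405 to 116354 CPM in TM5614 livers, so both groups carried the liver's defining transcripts. In whole liver, fewer cells of a type and less RNA per cell cannot be told apart.

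Upstream sequences are shown for 2 pairs of genes that were lower in the TM5614 group. Cyp2a5 and Cyp2a4 lie on chromosome 7 and are close copies of each other, and their upstream sequences are printed with the substituted bases in capitals. Each stretch runs from 250 to 51 bases before the gene's start, 5′ to 3′ on the strand of the gene, from RefSeq on GRCm38.p6, and starts are RefSeq's. For Cyp2c29 that start lies 17680 bases inside the gene as GENCODE gives it, so its stretch is upstream by RefSeq and within the gene by GENCODE.

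Cyp2a5 (chr7:26835089-26835288, plus strand): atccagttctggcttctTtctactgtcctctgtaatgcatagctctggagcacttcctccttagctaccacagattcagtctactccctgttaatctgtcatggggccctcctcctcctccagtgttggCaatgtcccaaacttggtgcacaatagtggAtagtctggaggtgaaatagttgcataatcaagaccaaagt

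Cyp2a4 (chr7:26306942-26307141, plus strand): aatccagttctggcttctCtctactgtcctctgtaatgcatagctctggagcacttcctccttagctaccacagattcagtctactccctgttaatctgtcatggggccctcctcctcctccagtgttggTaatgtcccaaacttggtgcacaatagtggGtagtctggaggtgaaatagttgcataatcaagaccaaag

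Over the 250 bases before their starts the 2 sequences were identical in 245 of 251 aligned columns (97.6%). The same stretch of Cyp2a5 was 48.8% identical to that of Cyp2a12 and 49.6% identical to that of Cyp2a22, the other members of the subfamily. Cyp2c29 and Cyp2c70 on chromosome 19 were the 2 called genes whose 250 bases held AGGTCA, a half-site bound by many nuclear receptors, which is in capitals.

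Cyp2c29 (chr19:39286835-39287034, plus strand): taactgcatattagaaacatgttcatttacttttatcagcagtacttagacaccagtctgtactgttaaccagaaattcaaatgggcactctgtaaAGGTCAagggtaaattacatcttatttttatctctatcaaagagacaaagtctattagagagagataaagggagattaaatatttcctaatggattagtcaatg

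Cyp2c70 (chr19:40187337-40187536, minus strand): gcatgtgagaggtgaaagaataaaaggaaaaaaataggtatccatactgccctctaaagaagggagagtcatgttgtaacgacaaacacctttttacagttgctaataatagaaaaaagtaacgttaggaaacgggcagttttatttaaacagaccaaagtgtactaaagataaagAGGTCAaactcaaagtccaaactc

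RefSeq held such a sequence for 36 of the 42 members and for 7 of the 9 genes called below. AGGTCA, read on both strands, lay in 10 of the 36 members (27.8%) and 14.0% of all 32851 promoters. A member with several RefSeq starts was counted if any of them held the sequence, while the share of all promoters is per start. Cyp2c39 counted through a stretch at 39347096 to 39347345, far before its GENCODE start at 39510862, and the stretch at its other RefSeq start held 0. The other half-site searched, AGTTCA, lay in 5 of the 36 members (13.9%) and 11.8% of all promoters, and in none of the 7 called genes. GCGTG, the core of the sites that the aryl hydrocarbon receptor binds, lay in 4 members (11.1%), Cyp1b1, Cyp2b10, Cyp2c68 and Cyp2j9, and in 28.2% of all promoters. TTATGTAA, the only sequence searched for the D-box to which Dbp and Tef bind, lay in none of the 36 and in 0.819% of all promoters. Each search also covered the reverse complement, and a match or its absence in this window describes the letters alone.

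Levels between genes are compared in FPKM (counts scaled by gene length and library, as deposited). They spanned from a mean of 6379 FPKM in the Chow group for Cyp2e1, which oxidises ethanol and acetaminophen, to 0.225 FPKM for Cyp2s1. Over all 10 libraries 2 members had a mean of at least 1000 FPKM, 19 of at least 100 and 36 of at least 1. Cyp2e1 was followed by Cyp3a11, the main Cyp3a enzyme of mouse liver, at 3912 ± 1375 FPKM in the Chow group (SD, n = 5). Over all 10 libraries Cyp2d9, Cyp2c29 and Cyp2d26 came next, and in the Chow group alone Cyp2c29, Cyp2a5 and Cyp2d9. Cyp2e1 and Cyp3a11 stood clear of the rest: the mean Chow level of Cyp2d9, a male-biased steroid hydroxylase, was 728 ± 291 FPKM, and those of Cyp2c29 (835 ± 252 FPKM), Cyp2a5 (770 ± 192 FPKM) and Cyp2d26 (684 ± 99.5 FPKM) lay within 1 SD of it. In the TM5614 group Cyp2a5 stood at 253 ± 68.4 FPKM, level with Cyp2c50 at 254 ± 64.1 FPKM.

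**Figure D1:**
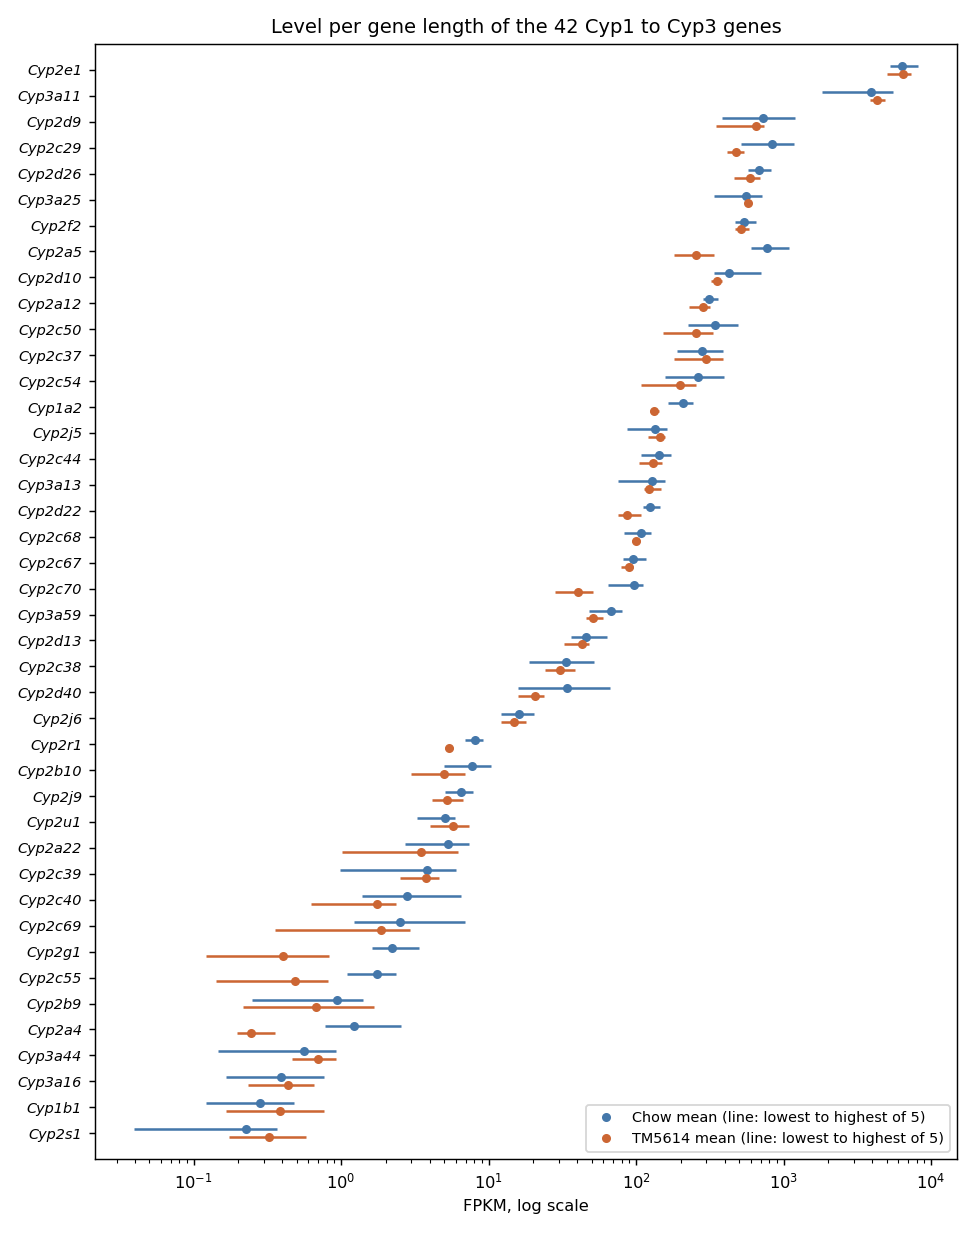
Level of the 42 Cyp1 to Cyp3 genes in FPKM on a log scale (x axis), one gene per row, ordered by the mean over 10 libraries. Points are group means and lines run from the lowest to the highest of 5 libraries, blue for Chow and orange for TM5614, and the lines of Cyp2a5, Cyp1a2 and Cyp2c70 do not meet while those of Cyp2e1 and Cyp3a11 lie over each other.

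Together the members took 3.23 ± 0.584% of all counts in Chow livers and 3.15 ± 0.137% in TM5614 livers (SD, n = 5 each), a difference smaller than the spread of the Chow libraries, which ran from 2.43% in replicate 2 to 4.02% in replicate 1. With replicate 2 left out of each group the shares were 3.43 ± 0.431% in Chow livers and 3.20 ± 0.0718% in TM5614 livers (SD, n = 4 each). Cyp2e1 and Cyp3a11 made up most of the members' counts. Without them the members took 1.33 ± 0.133% of counts in Chow livers and 1.09 ± 0.0652% in TM5614 livers. The highest TM5614 library, replicate 1 at 1.185%, lay next to the lowest Chow library, replicate 2 at 1.187%, so the groups met without overlapping.

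Of the 40 members tested, 9 were lower in the TM5614 group and 0 were higher (edgeR quasi-likelihood test, Benjamini-Hochberg adjusted p under 0.05 over 11092 genes). The 9 were Cyp2g1, Cyp2a4, Cyp2c55, Cyp2a5, Cyp2c70, Cyp2c29, Cyp1a2, Cyp2r1 and Cyp2d22. They are 22.5% of the members tested, where 2.77% of all genes tested were lower and 1.73% were higher. At an unadjusted p under 0.05, 12 members were lower and 0 higher. DESeq2 called the same 9 lower and 0 higher, where it called 5.04% of 11242 genes lower, and limma-voom called 11 lower and 0 higher. In 8 of the 40 members tested (20.0%), the called genes other than Cyp2c29, every TM5614 library lay below every Chow library in CPM, against 4.87% of all genes, and no member had every TM5614 library above every Chow library, against 4.07% of all genes. The median log2 fold change (TM5614 against Chow) of the 40 was -0.23, and that of all genes tested was 0.01. The 2 members that were not tested, Cyp2s1 (64 counts) and Cyp3a16 (61 counts), did not pass the filter on low counts, and Cyp2a4 passed it through the Chow group alone. Cyp2c55 and Cyp2g1 reached its CPM cutoff in all 5 Chow libraries and in only 1 TM5614 library each. The Chow group thus carried these genes too, which favours a difference, and both kept their call with no filter. Without Cyp2a4 alone, 8 of 39 members tested were lower (20.5%), and with no filter 8 of all 42 were.

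**Figure D2:**
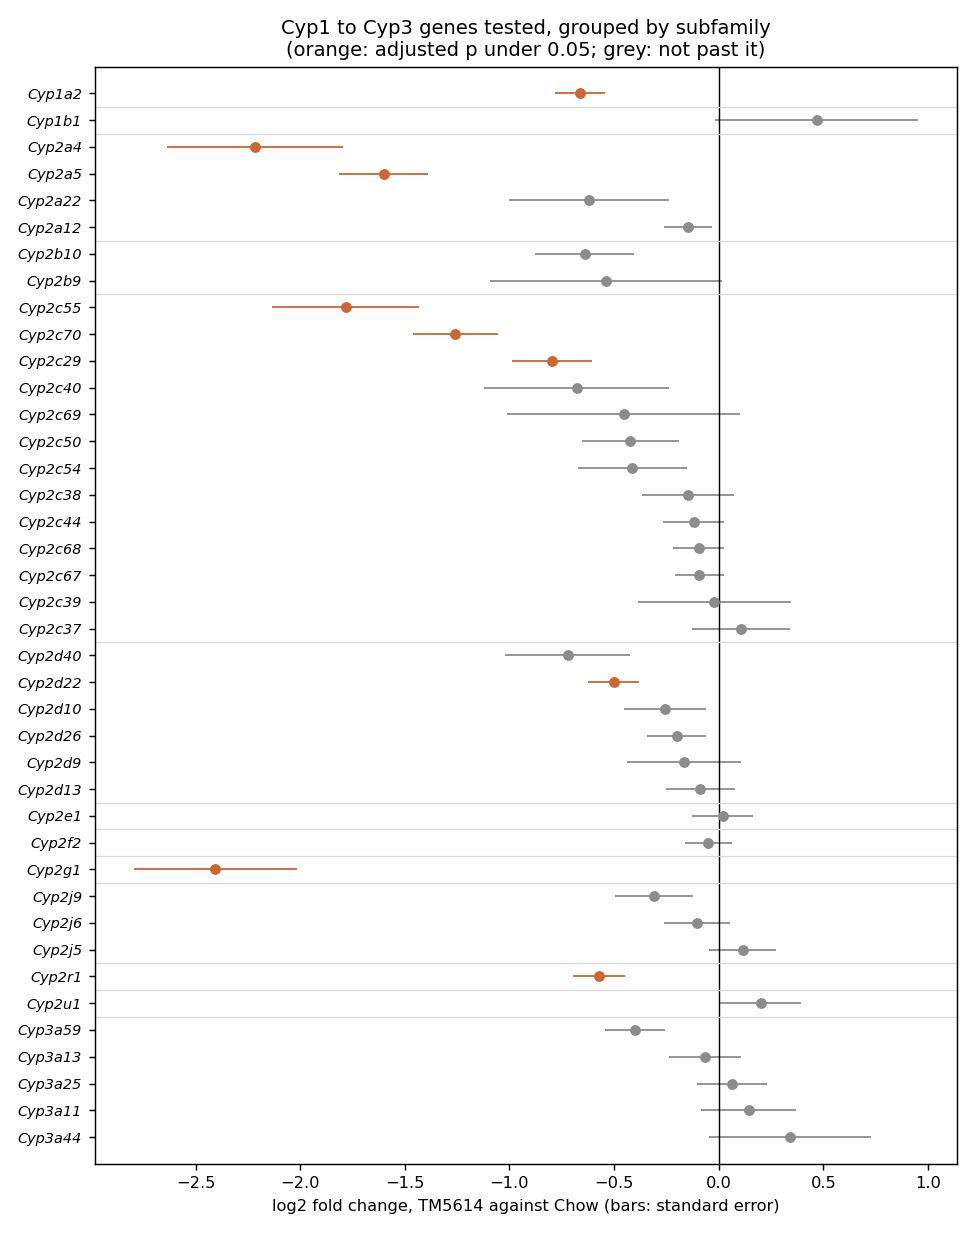
Log2 fold change of TM5614 against Chow (x axis) for the 40 members tested, grouped by subfamily, with bars for the standard error. The 9 genes in orange passed the edgeR test and lie between -2.41 (Cyp2g1) and -0.50 (Cyp2d22), and no gene right of 0 passed.

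Cyp2a5, which oxidises coumarin and nicotine, was the most abundant gene of the 9 after Cyp2c29. The Chow libraries held 1310, 1049, 1125, 1907 and 1295 CPM (replicates 1 to 5) and the TM5614 libraries 522, 599, 312, 334 and 437 CPM. The groups did not overlap: the highest TM5614 library held less than the lowest Chow library. Cyp2a5 fell by 67.0% (log2 fold change -1.60, SE 0.21, adjusted p = 0.00153 in edgeR). The gene lies on chromosome 7 from 26835305 to 26843548, plus strand (GENCODE M21 on GRCm38), and was called in each of 21 alternative fits (other tools, scalings, filters and libraries left out, each at the threshold of 0.05 and against no change).

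Its near copy Cyp2a4, a female-biased testosterone hydroxylase on the same chromosome (26307169 to 26315088, plus strand), was at a far lower level. It held 1.58, 1.35, 1.57, 4.44 and 1.66 CPM in the Chow libraries and 0.431, 0.389, 0.344, 0.343 and 0.616 CPM in the TM5614 libraries. Chow replicate 4 was the highest library for both genes. Cyp2a4 fell by 78.5% (log2 fold change -2.22, SE 0.42, adjusted p = 0.0111 in edgeR). It passed the filter through the Chow libraries alone, which favours a difference, and with no filter on low counts the adjusted p was 0.0139. The 2 transcripts share sequence: 22.1% of the 75-base windows of Cyp2a4 occur in other genes too, and 21.0% of all its windows occur in Cyp2a5. In FPKM the level of Cyp2a4 was 0.150 ± 0.0468% of that of Cyp2a5 in Chow livers and 0.100 ± 0.0288% in TM5614 livers (SD, n = 5 each). How reads that match both genes were counted is not given in the sources used here, so the value of Cyp2a4 is uncertain, and the part of such reads in it was not tested.

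Cyp2g1, a P450 known from the olfactory mucosa, lies between these genes on chromosome 7 (26808892 to 26821205, plus strand), 14099 bases before Cyp2a5 and next to it among the members. Its libraries held 3.03, 6.37, 3.24, 4.60 and 3.68 CPM in Chow livers and 0.574, 0.908, 0.229, 0.571 and 1.54 CPM in TM5614 livers. Cyp2g1 thus was low in every library, and Chow replicate 2 was its highest. It reached the cutoff of the low-count filter in 5 Chow libraries and 1 TM5614 library, which favours a difference. It fell by 81.1% (log2 fold change -2.41, SE 0.39, adjusted p = 0.00452 in edgeR), or -2.20 on the log2 scale with Chow replicate 2 left out. Only 2.76% of its 75-base windows occur in another gene, all of them in the predicted gene Gm44964. The next member beyond Cyp2a5, Cyp2a22, at a distance of 88082 bases, had 11.9 ± 4.42 CPM in Chow livers and 7.86 ± 4.20 CPM in TM5614 livers (log2 fold change -0.62, SE 0.38, adjusted p = 0.377 in edgeR). Cyp2a12, the member of the subfamily that follows it, differed by -0.15 on the log2 scale (SE 0.11, adjusted p = 0.479 in edgeR).

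**Figure D3:**
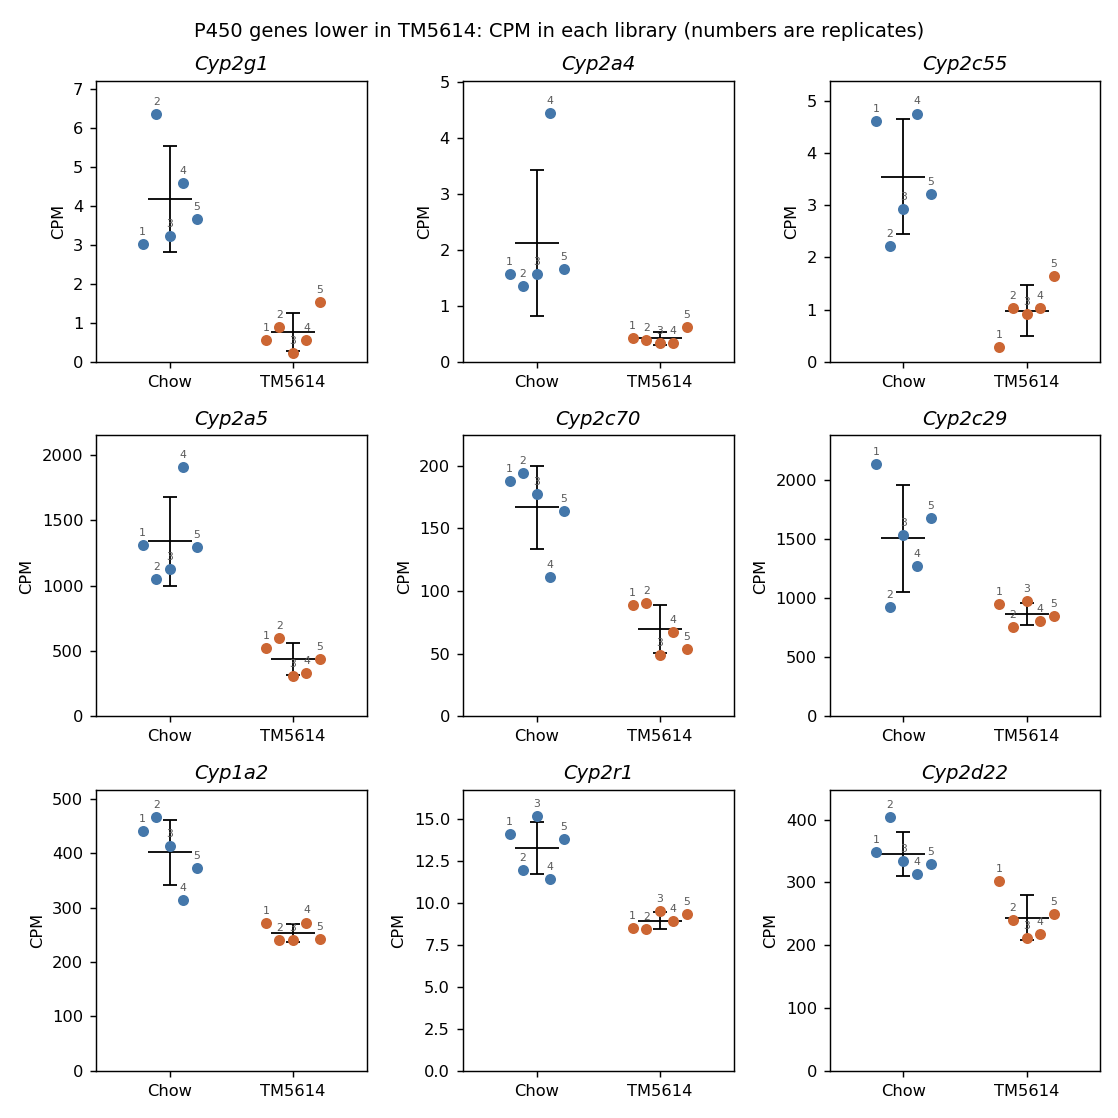
CPM (y axis, linear from 0) in each library of the 9 members that were lower in TM5614, Chow in blue and TM5614 in orange, with replicate numbers above the points. Horizontal marks are means and bars are SDs of 5 libraries, and the groups overlap only in Cyp2c29, where Chow replicate 2 at 924 CPM lies below the highest TM5614 library at 975 CPM.

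Among the 13 Cyp2c genes, 3 were lower, and 12 of the 13 had a negative log2 fold change. Cyp2c70, which makes the muricholic bile acids of the mouse, held 188, 194, 177, 112 and 164 CPM in the Chow libraries and 88.9, 90.3, 48.7, 67.3 and 54.1 CPM in the TM5614 libraries. Chow replicate 4 was the lowest of its group and still lay above all 5 TM5614 libraries. Cyp2c70 fell by 58.2% (log2 fold change -1.26, SE 0.20, adjusted p = 0.00452 in edgeR). It lies on chromosome 19 from 40153353 to 40187333, minus strand, and none of its 75-base windows occurs in another gene.

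Cyp2c55, an enzyme induced through CAR and PXR, held 4.61, 2.22, 2.92, 4.75 and 3.22 CPM in the Chow libraries and 0.287, 1.04, 0.917, 1.03 and 1.64 CPM in the TM5614 libraries. The groups did not overlap, at a level near the filter on low counts. Its cutoff was reached in 5 Chow libraries and 1 TM5614 library, which favours a difference. Cyp2c55 fell by 70.9% (log2 fold change -1.78, SE 0.35, adjusted p = 0.0132 in edgeR). It lies on chromosome 19 from 39007019 to 39042693, plus strand, 226711 bases from Cyp2c29, its neighbour among the members.

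Cyp2c29 (chromosome 19, 39269405 to 39330713, plus strand), a fatty acid epoxygenase also induced through CAR, was at 2134, 924, 1534, 1272 and 1678 CPM in the Chow libraries and at 954, 754, 975, 808 and 850 CPM in the TM5614 libraries. Chow replicate 2 lay among the TM5614 libraries, and the other 4 Chow libraries lay above them. Cyp2c29 fell by 42.4% (log2 fold change -0.80, SE 0.19, adjusted p = 0.0355 in edgeR). Its call was lost in 8 of the 10 fits that left out 1 library, with adjusted p from 0.0597 to 0.102, and held without Chow replicate 2 or Chow replicate 4.

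The other 10 Cyp2c genes did not pass the test. Cyp2c40 and Cyp2c69, female-biased genes of which 45.9% and 42.6% of windows occur in other genes, both stood high in Chow replicate 5, at 11.96 and 12.33 CPM, against 2.51 to 4.25 CPM and 2.18 to 3.28 CPM in the other Chow libraries. Cyp2c50, Cyp2c54 and Cyp2c37, counted among the genes induced through CAR and PXR, had log2 fold changes of -0.42 (SE 0.23), -0.41 (SE 0.26) and 0.11 (SE 0.23). The edgeR adjusted p of these 3 was 0.331, 0.391 and 0.823. Cyp2c44, an arachidonic acid epoxygenase, differed by -0.12 (SE 0.14, adjusted p = 0.661 in edgeR). Cyp2c38, Cyp2c39, Cyp2c67 and Cyp2c68 lay between -0.15 and -0.02.

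Cyp1a2, the P450 that clears caffeine and a classic target of the aryl hydrocarbon receptor, was at 440, 466, 412, 315 and 372 CPM in the Chow libraries and at 272, 240, 241, 273 and 241 CPM in the TM5614 libraries. The TM5614 libraries lay close together and all below Chow replicate 4, the lowest of the Chow group. Cyp1a2 fell by 36.8% (log2 fold change -0.66, SE 0.12, adjusted p = 0.00791 in edgeR). It lies on chromosome 9 from 57676937 to 57683703, minus strand. The other 2 targets of this receptor in these families were scarce. Cyp1b1 had 1.47 ± 0.891 CPM in Chow livers and 2.00 ± 1.28 CPM in TM5614 livers (adjusted p = 0.604 in edgeR), and Cyp1a1 had 5, 7, 8, 2 and 11 counts in the Chow libraries and 1, 5, 1, 6 and 3 counts in the TM5614 libraries, too few for a test.

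Cyp2r1, which hydroxylates vitamin D in the liver, was at 14.1, 11.96, 15.1, 11.4 and 13.8 CPM in the Chow libraries and at 8.47, 8.43, 9.52, 8.91 and 9.34 CPM in the TM5614 libraries. The 2 ranges were narrow and apart. Cyp2r1 fell by 32.7% (log2 fold change -0.57, SE 0.12, adjusted p = 0.0225 in edgeR). The gene lies on chromosome 7 from 114549682 to 114562972, minus strand, far from the Cyp2a genes. Its call was lost in 5 of the 10 fits without 1 library (Chow replicate 3 and TM5614 replicates 1, 2, 3 and 4), with adjusted p from 0.0515 to 0.0685.

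Of the 6 Cyp2d genes, all with a negative log2 fold change, only Cyp2d22 passed the test. Cyp2d22 is often taken as the mouse counterpart of human CYP2D6. It held 348, 404, 335, 314 and 329 CPM in the Chow libraries and 303, 240, 211, 218 and 250.03 CPM in the TM5614 libraries. TM5614 replicate 1 lay just under Chow replicate 4. Cyp2d22 fell by 29.4% (log2 fold change -0.50, SE 0.12, adjusted p = 0.0383 in edgeR), and lies on chromosome 15 from 82370527 to 82380260, minus strand. Its call was lost in 8 of the 10 fits without 1 library, all but those without Chow replicate 2 or TM5614 replicate 1, and with no filter on low counts (adjusted p = 0.0563).

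The abundant Cyp2d9 and Cyp2d10 turned on single libraries. Cyp2d9 had 1985 CPM in Chow replicate 2 and 640 CPM in Chow replicate 4, with the other Chow libraries between 1109 and 1192 CPM, and 593 CPM in TM5614 replicate 2, where the other 4 held 1174 to 1233 CPM. Its log2 fold change was -0.17 (SE 0.27, adjusted p = 0.750 in edgeR) with all libraries and 0.08 without Chow replicate 2. Without TM5614 replicate 2 it was -0.02. Cyp2d10 had 1179 CPM in Chow replicate 2 against 562 to 621 CPM in the other Chow libraries and 538 to 636 CPM in the TM5614 libraries. With all libraries its log2 fold change was -0.26 (SE 0.20), and without Chow replicate 2 it was -0.003 (adjusted p = 0.990). Cyp2d40 stood at 73.6 CPM in the same library and at 17.7 to 38.0 CPM in the other Chow libraries (log2 fold change -0.72, SE 0.30, adjusted p = 0.204 in edgeR), and without that library the log2 fold change was -0.35 (adjusted p = 0.273). For Cyp2d26 the log2 fold change was -0.20, and for Cyp2d13 it was -0.09.

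The 2 most abundant members did not pass the test. Cyp2e1, which is expressed around the central veins, was at 14322, 9229, 10687, 9365 and 12418 CPM in the Chow libraries and at 12913, 9011, 11542, 11578 and 11720 CPM in the TM5614 libraries. The groups covered the same range (log2 fold change 0.02, SE 0.15, adjusted p = 0.951 in edgeR). Cyp3a11, a target of PXR, was at 11370, 3763, 7274, 9523 and 8709 CPM in the Chow libraries and at 7975, 9432, 8766, 10112 and 8565 CPM in the TM5614 libraries. Chow replicate 2 held the least of all 10, and the log2 fold change was 0.14 (SE 0.23, adjusted p = 0.745 in edgeR) with it and -0.05 without it.

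None of the 5 Cyp3a genes tested passed with edgeR (1 at an unadjusted p under 0.05, Cyp3a59) or DESeq2, and limma-voom called Cyp3a59 lower. Cyp3a59 had 137 ± 24.4 CPM in Chow livers and 104 ± 12.6 CPM in TM5614 livers (SD, n = 5 each), a difference of -0.40 on the log2 scale (SE 0.14, adjusted p = 0.142 in edgeR). Chow replicate 2, at 96.7 CPM, lay among the TM5614 libraries, and without it the adjusted p was 0.00489. Cyp3a25 had 0.06 (SE 0.17), Cyp3a13 had -0.07 (SE 0.17) and the female-biased Cyp3a44, at 1.10 ± 0.549 CPM in the Chow group, had 0.34 (SE 0.39) as log2 fold change. The untested Cyp3a16 had 0.687 ± 0.388 CPM in Chow livers and 0.768 ± 0.320 CPM in TM5614 livers. The female-biased Cyp3a41a and Cyp3a41b, whose symbols fall outside the naming rule, had 12 and 0 counts in all.

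Cyp2b10, the standard marker of CAR activity, held 19.5, 9.45, 13.9, 12.8 and 17.9 CPM in the Chow libraries and 13.1, 10.1, 9.29, 9.37 and 5.65 CPM in the TM5614 libraries. Chow replicate 2 lay within the TM5614 range and the other 4 Chow libraries lay near or above its upper end. The log2 fold change was -0.64 (SE 0.24, adjusted p = 0.157 in edgeR), and without Chow replicate 2 it was -0.78 with an adjusted p of 0.0329. Its relative Cyp2b9, a female-biased gene, had 1.77 ± 0.945 CPM in Chow livers and 1.28 ± 1.13 CPM in TM5614 livers (adjusted p = 0.602 in edgeR). Of the 8 CAR and PXR targets among the members, 2 were lower (Cyp2c29 and Cyp2c55), with a median log2 fold change of -0.42. That is 25.0%, against 22.5% of all 40 members tested, whose median was -0.23.

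Cyp2f2, which activates naphthalene and lies around the portal veins in liver, had 985 ± 124 CPM in Chow livers and 952 ± 91.4 CPM in TM5614 livers (SD, n = 5 each; log2 fold change -0.05, SE 0.11, adjusted p = 0.831 in edgeR). The fatty acid epoxygenases of the Cyp2j subfamily did not pass either. For Cyp2j5, the main renal and hepatic form, the log2 fold change was 0.11 (SE 0.16), for Cyp2j6 it was -0.10 (SE 0.16) and for Cyp2j9 it was -0.31 (SE 0.19, adjusted p = 0.373 in edgeR). Cyp2u1, a fatty acid hydroxylase, had 11.9 ± 2.48 CPM in Chow livers and 13.6 ± 2.90 CPM in TM5614 livers (adjusted p = 0.575 in edgeR). Cyp2s1, not tested, had 0.597 ± 0.378 CPM and 0.868 ± 0.441 CPM.

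Below the minimum lay 16 symbols, of which 8 had 1 to 49 counts in all and 8 had 0 counts. The latter were Cyp2b13, Cyp2b19, Cyp2b23, Cyp2c65, Cyp2c66, Cyp2j11, Cyp2j13 and Cyp2w1, and a count of 0 allows up to 3 counts among the 87558558 of the 10 libraries. Cyp2b13 is a female-biased gene, and Cyp2c65 a CAR and PXR target best known from the intestine.

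By position, the called members lay on 4 chromosomes. On chromosome 7, 4 of the 10 members tested were lower, on chromosome 19, 3 of 13, on chromosome 15, 1 of 5 and on chromosome 9 the 1 that was tested. On chromosome 5, 0 of 5 were lower (1 lower at an unadjusted p under 0.05, and 0 by DESeq2). Chromosomes 3, 4 and 17 had 0 of 1, 0 of 3 and 0 of 1 (edgeR, 0 at an unadjusted p under 0.05, and 0 by DESeq2). The shares were 40.0% on chromosome 7, 23.1% on chromosome 19 and 20.0% on chromosome 15, against 22.5% of all members tested. Cyp2a4, Cyp2g1 and Cyp2a5 followed one another in the order of the members, and within the Cyp2c cluster the first 2 members, Cyp2c55 and Cyp2c29, and Cyp2c70 near its other end were lower while the 9 between them were not called. These are counts with no test of their own.

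**Figure D4:**
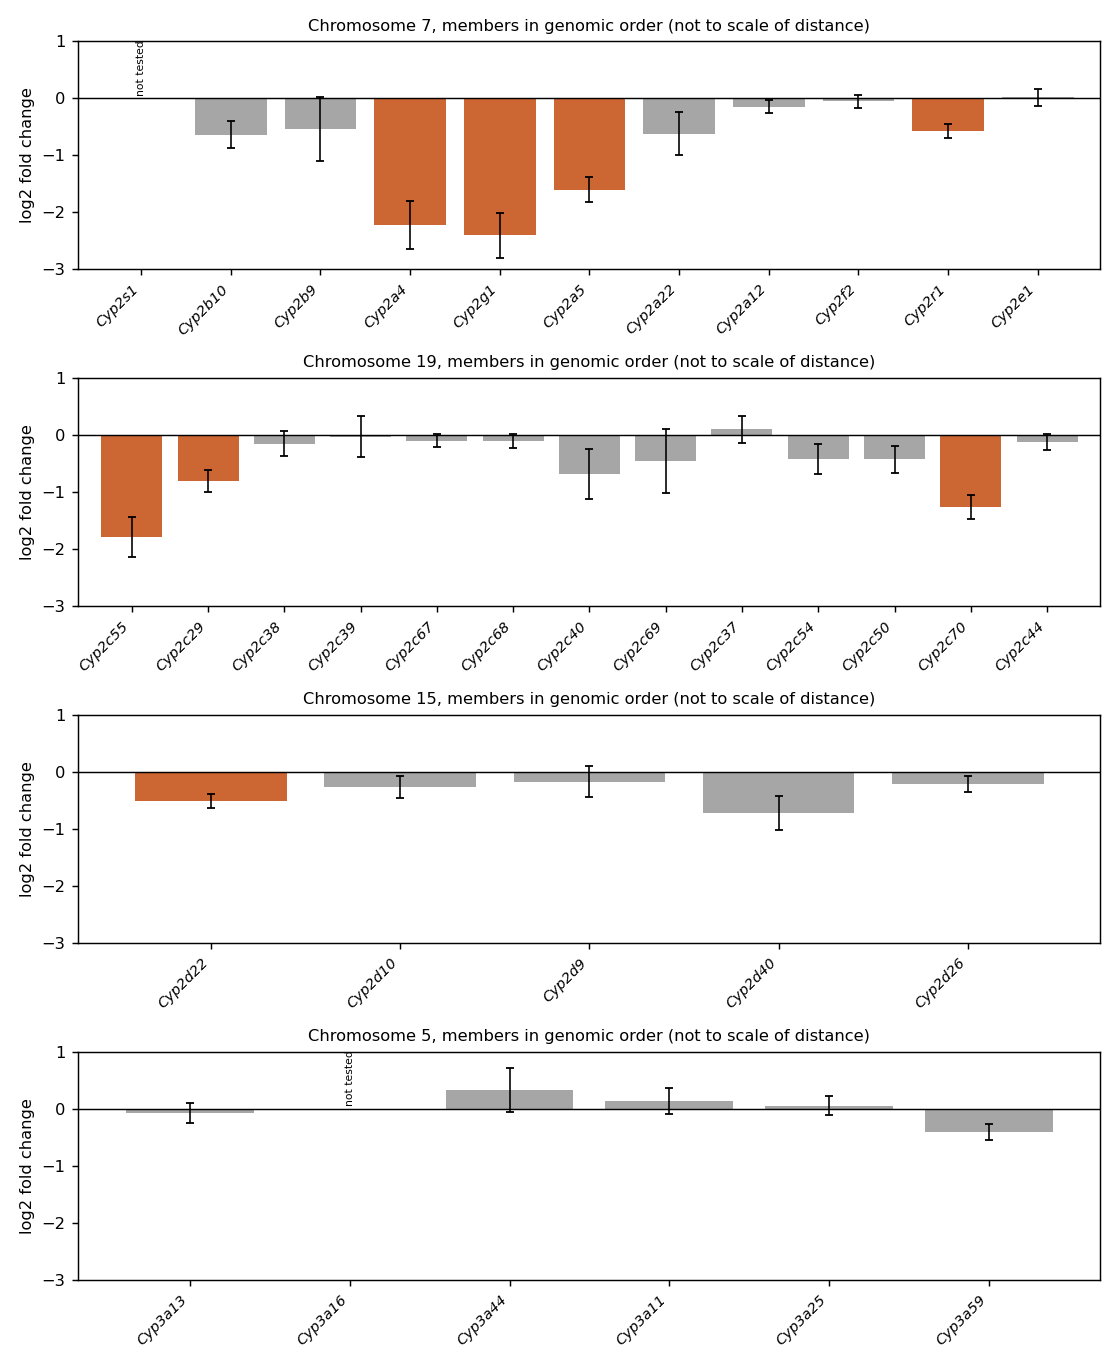
Log2 fold change of TM5614 against Chow (y axis, bars from 0 with standard errors) for members in their order along chromosomes 7, 19, 15 and 5, with spacing not to scale. Orange bars passed the edgeR test, and on chromosome 7 Cyp2a4, Cyp2g1 and Cyp2a5 stand side by side at -2.22, -2.41 and -1.60, while no bar on chromosome 5 is orange.

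The partners and regulators of these enzymes were read from a list of 47 genes. Of the 44 tested, 7 were lower and 0 higher (edgeR, 15.9% lower, against 2.77% of all genes tested). At an unadjusted p under 0.05, 3 were higher (2 regulators and 1 CAR and PXR target). Lower at that threshold were 9 regulators, 5 genes for electron supply and haem, and 2 CAR and PXR targets. DESeq2 called 12 lower and 1 higher, Nfil3.

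Of 8 genes for electron supply and haem, 3 were lower. Por, the reductase that supplies electrons to every member, was at 730, 756, 654, 846 and 764 CPM in the Chow libraries and at 515, 377, 557, 492 and 633 CPM in the TM5614 libraries. Each TM5614 library lay below each Chow library, and Por fell by 31.4% (log2 fold change -0.54, SE 0.14, adjusted p = 0.0431 in edgeR). That call was lost in 12 of 21 alternatives, among them 8 of the 10 fits without 1 library (adjusted p up to 0.120) and the correction for GC content and length (adjusted p = 0.188).

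Cyb5r3, which reduces cytochrome b5, fell by 50.6% (398 ± 126 CPM in Chow livers and 197 ± 22.7 CPM in TM5614 livers, SD, n = 5 each; log2 fold change -1.02, SE 0.18, adjusted p = 0.00776 in edgeR). Chow replicate 2 stood highest, at 620 CPM, and the call held in all 21 alternatives. Cyb5b, an outer mitochondrial cytochrome b5, fell by 32.0% (log2 fold change -0.56, SE 0.13, adjusted p = 0.0295 in edgeR), a call lost in 7 of the 10 fits without 1 library. Cyb5a, the cytochrome b5 of the endoplasmic reticulum, had -0.27 (adjusted p = 0.122 in edgeR), and Alas1, the first enzyme of haem synthesis, had -0.78 (adjusted p = 0.214 in edgeR) as log2 fold change.

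Of 26 transcription factors and receptors tested, 4 were lower. Dbp and Tef, clock-driven factors that act through D-boxes on genes of detoxification, both fell. Dbp was at 131, 277, 173, 170 and 143 CPM in the Chow libraries and at 57.3, 33.1, 25.3, 44.9 and 65.0 CPM in the TM5614 libraries, and fell by 74.8% (log2 fold change -1.99, SE 0.27, adjusted p = 0.00179 in edgeR). Tef fell by 46.3% (log2 fold change -0.90, SE 0.16, adjusted p = 0.00733 in edgeR). Hlf, the third of these factors, had -0.51 (adjusted p = 0.100 in edgeR), and Nfil3, which represses through the same element, had 1.06 (SE 0.29, adjusted p = 0.0610 in edgeR). Since the time of collection is not in the labels, a difference in time of day between the groups cannot be told apart from the treatment.

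Cux2, a factor with female-biased expression in liver, held 19.6, 16.3, 14.1, 25.0 and 21.9 CPM in the Chow libraries and 5.89, 4.02, 4.13, 2.51 and 10.7 CPM in the TM5614 libraries, with no overlap, and fell by 71.6% (log2 fold change -1.82, SE 0.32, adjusted p = 0.00749 in edgeR). Apart from Cyp2a4, 5 sex-biased P450s were tested and none was called (edgeR, 0 at an unadjusted p under 0.05, and 0 by DESeq2). Of these, Cyp2b9, Cyp2c40, Cyp2c69 and Cyp3a44 had Chow means of 1.10 to 5.13 CPM and SEs of 0.39 to 0.56. Cyp2d9 turned on single libraries. A change in these 5 could therefore have been missed. Rxra, the partner of CAR and PXR, fell by 23.1% (log2 fold change -0.38, SE 0.09, adjusted p = 0.0417 in edgeR), a call lost in 13 of 21 alternatives, among them 9 of the 10 fits without 1 library.

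The receptors themselves did not pass the edgeR test. Nr1i3 (CAR) was at 180, 282, 219, 127 and 197 CPM in the Chow libraries and at 148, 81.8, 113, 125 and 162 CPM in the TM5614 libraries, and Chow replicate 4 lay within the range of the TM5614 group (log2 fold change -0.67, SE 0.22, adjusted p = 0.113 in edgeR). Nr1i2 (PXR) had 95.7 ± 8.39 CPM in Chow livers and 77.0 ± 6.36 CPM in TM5614 livers with no overlap (log2 fold change -0.31, SE 0.10, adjusted p = 0.113 in edgeR). DESeq2 called both lower, with adjusted p of 0.0488 and 0.0273. For Ahr the log2 fold change was -0.08 (SE 0.27, adjusted p = 0.889 in edgeR), and for Hnf4a, a general factor of hepatocyte genes, it was 0.16 (SE 0.11, adjusted p = 0.421 in edgeR).

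Of the 8 CAR and PXR targets outside the P450 families that were tested, 0 passed the edgeR test, 2 were lower and 1 was higher at an unadjusted p under 0.05, and DESeq2 called 1 lower, the transporter Abcb1a (log2 fold change -1.16, adjusted p = 0.0932 in edgeR). Tiparp and Nqo1, the AhR targets tested outside these families, had log2 fold changes of -0.13 and -0.26, with 0 at an unadjusted p under 0.05 and 0 by DESeq2.

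**Figure D5:**
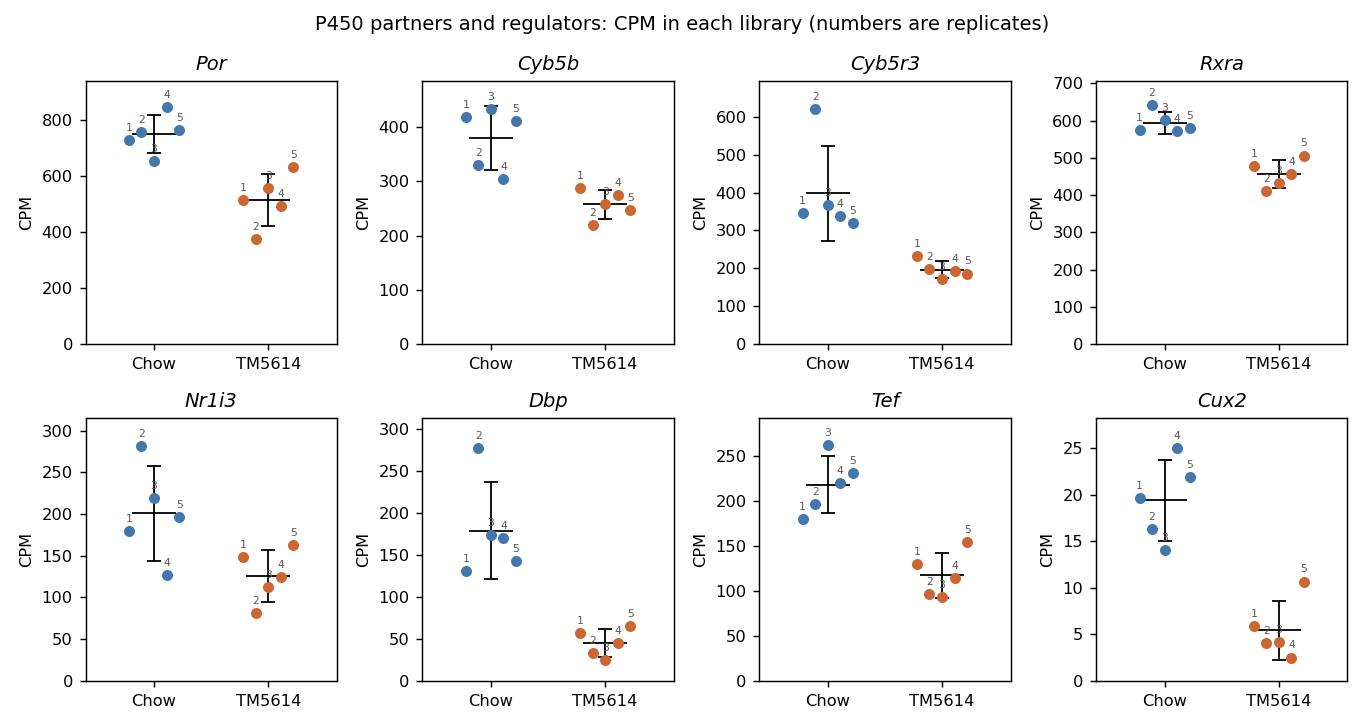
CPM (y axis, linear from 0) in each library of 8 partners and regulators of the P450 enzymes, Chow in blue and TM5614 in orange, with replicate numbers, means and SDs of 5 libraries. In Dbp and Cux2 the groups do not overlap, while in Nr1i3, which did not pass the edgeR test, Chow replicate 4 at 127 CPM lies among the TM5614 libraries.

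Genes that mark the zones and other cells of the liver were read beside these results. Of 10 pericentral genes, 3 were lower (Gulo, Lect2 and Rgn) and 1 was higher (Axin2, a target of Wnt signalling). These are 30.0% and 10.0%, where 2.77% of all genes tested were lower and 1.73% were higher. The summed level of the 10 ranged from 2767 to 3877 CPM in Chow livers and from 2742 to 4347 CPM in TM5614 livers. Of 7 periportal genes 1 (14.3%), Cdh1, was higher. Of these 5 only Gulo kept its call in all 21 alternatives (log2 fold change -0.65, SE 0.13, adjusted p = 0.0124 in edgeR). All 9 Kupffer cell markers had a negative log2 fold change, with a median of -0.37, and 0 passed (edgeR, 0 at an unadjusted p under 0.05, 0 by DESeq2), and their summed level was 74.2 to 237 CPM in Chow livers and 76.9 to 162 CPM in TM5614 livers. Of 7 endothelial, 6 stellate cell and 3 cholangiocyte markers tested 0 passed (edgeR, with 1, 1 and 0 higher at an unadjusted p under 0.05, and 0 by DESeq2). The part of zone or cell composition in the P450 results was not tested.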

How the data were processed

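Liver RNA of 5 Chow and 5 TM5614 mice was sequenced as 75-base single-end reads from poly(A) libraries. Per the study's methods these were aligned with STAR to mm10 through RNA Express, and the step that counted reads per gene is not described there. The submitters' processing notes also name DESeq2 and HOMER. Versions, the annotation and the use of strand are not given in the sources used here. The authors deposited raw counts by gene symbol, which were tested here, and FPKM values, which served for levels between genes. The deposited regularised log values and the table of the authors' own comparison (fold changes and p-values) were not used. Columns were matched by mouse number.

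Genes were filtered with filterByExpr, scaled with TMM and tested with edgeR 4.0.16 (glmQLFit, glmQLFTest, two-sided, R 4.3.3). P-values of the 11092 genes tested were adjusted by Benjamini-Hochberg, and 0.05 was the threshold. Standard errors were obtained from each gene's F statistic and log2 fold change. Alternatives were DESeq2 1.42.0, limma-voom 3.58.1, other scaling and filters, a replicate block, robust dispersion, a GC content and length offset, stricter thresholds and each library left out. The fits were tested on simulated data. Coordinates are from GENCODE M21 by symbol (Cyp2c44 is Cyp2c23 there, and Cyp2d13 was not matched), and upstream sequences from RefSeq (GRCm38.p6). The members and lists were chosen with earlier results of these data known. Named are all members called, the 5 of highest FPKM, members of fixed roles, members that failed the filter, and list genes called. No pair of libraries in a group was a duplicate (lowest chi-square per degree of freedom 8.00). Precision follows the counts, and floors cover counting error only. Where nothing says how the mice were housed or processed, p-values measure the spread between these libraries.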

Additional observations from a re-analysis of the deposited data

Results flagged for a closer look

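Of 82 sets of 5 libraries (the members with values in each group), 6 held a library far from the other 4, where chance gives about 1 in 20, or 4.1. Cyp2a4 was at 4.44 CPM in Chow replicate 4 and at 1.35 to 1.66 CPM in the other Chow libraries. Cyp2c40 and Cyp2c69 were at 11.96 and 12.33 CPM in Chow replicate 5, against at most 4.25 and 3.28 CPM. In Chow replicate 2 Cyp2d10 was at 1179 CPM, against at most 621 CPM. In TM5614 replicate 2 Cyp2d9 was at 593 CPM, against at least 1174 CPM, and in TM5614 replicate 3 Cyp3a13 was at 443 CPM, against at most 349 CPM.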

How the results depend on the processing

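The count of P450 members lower in TM5614 was 9 and lay between 6 and 11 under the other alternatives, but was 4 at an adjusted p of 0.01 and 2 when tested against a fold change of 1.5, both stricter by construction. Cyp1a2, Cyp2a4, Cyp2a5, Cyp2c55, Cyp2c70 and Cyp2g1 kept their call in every alternative that tested for any change at the 0.05 threshold, and against a fold change of 1.5 only Cyp2a5 and Cyp2g1 did. With at least 10 counts in every library Cyp2a4, Cyp2c55 and Cyp2g1 were not tested. Cyp2c29, Cyp2d22 and Cyp2r1 lost it in 8, 9 and 5 of 21. Cyp2b10 and Cyp3a59 gained a call with limma-voom and without Chow replicate 2, and Cyp3a59 also with the GC content and length offset. Over all genes 307 were lower with edgeR and 567 with DESeq2. Among the genes called, depth limits Cyp2a4, Cyp2c55 and Cyp2g1 most, and Cyp2a4 had only 3 to 6 counts in each TM5614 library. Among the regulators, partners and targets, 7 were lower with edgeR, 12 with DESeq2, 14 with limma-voom, 4 at an adjusted p of 0.01, 1 against a fold change of 1.5, and 4 to 11 with libraries left out, the most without Chow replicate 2. The count higher was 0, and 1 with DESeq2, limma-voom, the replicate block and the GC content and length offset, and 0 to 1 with libraries left out. Of the zone and cell markers 1 to 3 were lower and 0 to 3 higher with libraries left out, against 3 and 2. The cause of these changes was not tested.

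The 15 genes whose log2 fold change changed sign were not called in any of those fits. With the GC content and length offset these values were 0.0063 for Cyp2d10, -0.0060 for Cyp2e1, 0.063 for Cyp2f2, -0.030 for Cyp3a11 and -0.068 for Cyp3a25. With limma-voom they were 0.138 for Cyp2d9 and -0.067 for Cyp3a25. Cyp2c39 had 0.018 with library totals alone and 0.106 with the replicate block. With libraries left out (singly, or Chow replicate 2 and TM5614 replicate 2 together, a choice made after seeing the data) the ranges crossed 0. They were Ahr from -0.279 to 0.142, Cyp1b1 from -0.067 to 0.793, Cyp2c37 from -0.0089 to 0.248, Cyp2c38 from -0.305 to 0.053, Cyp2c39 from -0.285 to 0.188, Cyp2c69 from -0.679 to 0.380, Cyp2d10 from -0.342 to 0.011, Cyp2d13 from -0.165 to 0.061, Cyp2d9 from -0.337 to 0.235, Cyp2e1 from -0.049 to 0.116, Cyp2f2 from -0.101 to 0.028, Cyp2j5 from -0.018 to 0.183, Cyp3a11 from -0.061 to 0.287, Cyp3a13 from -0.213 to 0.014 and Cyp3a25 from -0.095 to 0.165.

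The replicate numbers were not taken as pairs, since same-numbered libraries had correlations of 0.032, 0.318, 0.124, 0.032 and 0.250 in their deviations. With the replicate block 9 members were lower and 0 higher. Por and Rxra lost their call under it.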

Other observations

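Among the P450 genes outside these families, 23 were tested and 5 were called, 4 higher and 1 lower (edgeR), with a median log2 fold change of 0.15. That is 17.4% higher and 4.35% lower, where 1.73% of all genes tested were higher and 2.77% were lower. These 5 are named because they were called, after their values were seen. The fatty acid omega-hydroxylases Cyp4a10 and Cyp4a14, known targets of PPARα, rose. Cyp4a10 had 1282 ± 326 CPM in Chow livers and 3391 ± 634 CPM in TM5614 livers (SD, n = 5 each; log2 fold change 1.403, SE 0.19, adjusted p = 0.00167 in edgeR). Cyp4a14 had 3282 ± 979 and 7793 ± 1178 CPM (log2 fold change 1.25, adjusted p = 0.00302 in edgeR). Cyp4a31 and Cyp4f17 were higher by 0.83 and 0.92 on the log2 scale, and Cyp4f14 fell by 0.83. The Cyp4a genes are similar in sequence, and their single values are uncertain.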
